A study of Vitis vinifera with 36 samples.

Results

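The comparison described here is that of berries sprayed with the synthetic auxin 1-naphthaleneacetic acid (NAA100) with berries sprayed with the surfactant solution alone (Control), both collected at stage E-L 34 of the modified Eichhorn-Lorenz (E-L) scale, when berries begin to soften and have not yet coloured. Its members were fixed by the column names of the deposited expression table and by no measured value. They are 6 of the 36 libraries, 3 of NAA100 and 3 of Control, compared over 17598 of the 25280 genes in the table, which are those with at least 1 FPKM (fragments per kilobase of transcript, scaled to the mapped fragments of the library) in at least 3 of the 36 libraries. All vines were Vitis vinifera cv. Cabernet Sauvignon grown in Shanxi, China, in 2015. NAA100 clusters received 100 mg/L NAA in 0.05% Tween 20, and Control clusters received 0.05% Tween 20 without the hormone. Both were sprayed at E-L 33, 7 weeks after flowering, when berries were hard and green, in 3 plots of 50 vines for each treatment, laid out as randomized blocks. A replicate was a pool of 500 berries, of which 50 were drawn for RNA. The seeds were removed before extraction, so that the RNA is that of the whole pericarp, skin and flesh together. The other 30 libraries, from abscisic acid (ABA1000, 1000 mg/L ABA) and from the later stages E-L 35, 36 and 38, entered the same model. They thus helped to set the genes tested and the variance behind every adjusted p at E-L 34. Otherwise they are used below only to show where the E-L 34 response differs.

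Auxin is perceived by the TIR1/AFB F-box receptors, which mark the AUX/IAA repressors for breakdown and thereby release the auxin response factors (ARFs). The AUX/IAA, GH3 and SAUR genes are the classical early auxin response genes, and the GH3 enzymes and the DAO oxidases in turn remove free auxin by conjugating or oxidising it. In the grape berry, auxin is high after fruit set and low at veraison, the onset of ripening, when abscisic acid, sugars and anthocyanins accumulate and the cell walls soften.

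At E-L 34, NAA100 berries held higher levels of auxin response genes, of small heat shock protein genes and of light-harvesting genes than Control berries. They held lower levels of several expansin and aquaporin genes, and of single genes among the thaumatin-like proteins and chitinases, the pectin-degrading enzymes, and the regulators and enzymes of the anthocyanin pathway. A gene is called here when its adjusted p from limma (Benjamini-Hochberg over the 17598 genes) is at most 0.01 and its log2 fold change, NAA100 minus Control on the log2(FPKM + 1) scale, is at least 1 in size. By this rule 396 genes were higher, which is 2.25% of the genes tested, and 271 were lower, which is 1.54%, or 667 in either direction (3.79%). Among them 15 were at least 8-fold higher and 19 at least 8-fold lower, and the extremes were 3.89 and −6.47 on the log2 scale. The median log2 fold change over all genes was 0.07, and 60.7% of genes were above 0. The 3 NAA100 and 3 Control values did not overlap for 389 of the 396 higher genes and 270 of the 271 lower genes, beside 43.0% of all genes tested, called or not. An adjusted p of 0.05 or less, with no limit on the fold, was reached by 5309 genes (30.2%), 3410 of them higher and 1899 lower, and an unadjusted p under 0.05 by 40.4% of the genes tested. Since 1 FPKM was added before taking logarithms, the fold changes of genes near or below 1 FPKM are understated. In a whole-pericarp extract, fewer cells of a type and less transcript per cell cannot be told apart. Berries were collected by stage, and the study reports that NAA delayed the onset of ripening. NAA100 and Control berries of a stage may thus have been collected on different days, which the sample labels do not give. The part of collection day in the differences was not tested.

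**Figure D1:**
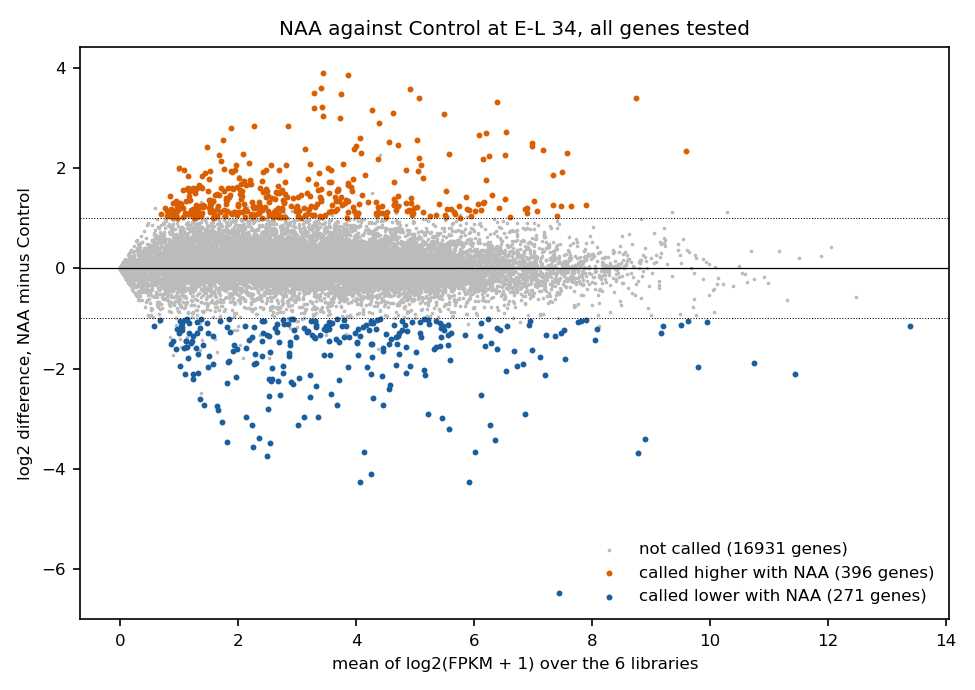
Each point is 1 of the 17598 genes tested, with its mean log2(FPKM + 1) over the 6 libraries on the horizontal axis and its log2 difference, NAA100 minus Control, on the vertical axis. The 396 genes called higher (orange) reach 3.89, the 271 called lower (blue) reach −6.47, and the dotted lines mark a log2 difference of 1 in either direction.

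The 3 libraries of a group were not equally alike. Control library 2 differed from the other Control libraries by a root mean square log2 difference of 0.353 and 0.354, against 0.244 between Control libraries 1 and 3, and it lay nearer to the NAA100 libraries (0.455 to 0.486) than those did (0.541 to 0.620). On the main axis of variation over the 6 libraries, which held 66.1% of the variance, the NAA100 libraries scored 26.4, 28.5 and 38.6, and the Control libraries −39.4, −16.2 and −38.0. Control library 2 was the highest Control value for 318 of the 396 higher genes and the lowest for 203 of the 271 lower genes. Without it, 560 genes were called higher and 294 lower, among them 384 of the 396 and 247 of the 271. The 10 most abundant genes took 6.68% to 7.43% of the summed FPKM in NAA100 libraries and 8.07% to 11.1% in Control libraries. Sequencing depth, read from the steps between the lowest values in the table, lay between 0.949 and 1.02 in NAA100 libraries and between 0.995 and 1.01 in Control libraries, relative to Control library 1.

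The auxin response genes called were all higher with NAA100. Of the 20 AUX/IAA genes listed, 17 were tested, 8 were higher with NAA100 and none was lower, and their median log2 fold change was 1.10 (0.07 over all genes). An AUX/IAA gene described as auxin-induced protein 22A-like (VIT_209s0002g05150, chr9:4850834-4853366) had 406, 445 and 420.0 FPKM in NAA100 libraries, against 78.8, 98.4 and 79.5 FPKM in Control libraries (log2 fold change 2.30 ± 0.24 SE, limma adjusted p = 6.13e-08). It was the most abundant AUX/IAA gene in NAA100 berries, and its log2 fold change was 2.40 without Control library 2. A gene described as auxin-induced protein 22D (VIT_207s0141g00270, chr7:165372-166693) had 239.8, 171 and 199.6 FPKM in NAA100 libraries, against 26, 78.8 and 33.5 FPKM in Control libraries (log2 fold change 2.27 ± 0.39 SE, limma adjusted p = 7.35e-05). A related 22D gene (VIT_205s0020g04670, chr5:6535822-6537674) had 144, 150.2 and 161 FPKM in NAA100 libraries, against 21.9, 69.1 and 22.7 FPKM in Control libraries (log2 fold change 2.18 ± 0.40 SE, limma adjusted p = 0.000166). For both 22D genes Control library 2 was well above the other Control libraries, yet below every NAA100 library. The gene VIT_209s0002g05160, which lies next to the 22A-like gene on chromosome 9, was also higher (log2 fold change 1.24). IAA13 (VIT_205s0049g01970) had 19.7, 20.8 and 25.9 FPKM in NAA100 libraries, against 3.90, 5.67 and 4.80 FPKM in Control libraries (log2 fold change 2.0 ± 0.17 SE, limma adjusted p = 1.86e-09). The other higher members, which like IAA13 and VIT_209s0002g05160 were chosen after their values were seen, were the IAA16-like VIT_207s0141g00290 (log2 fold change 1.79), the IAA9-like VIT_211s0016g05640 (1.5) and another 22D gene, VIT_214s0030g02310 (1.23). The last of these was lost without Control library 1 (1.17), Control library 3 (0.99), NAA100 library 2 (1.18) or NAA100 library 3 (1.10).

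The ARFs, the transcription factors that AUX/IAA proteins repress, changed less. Of 22 listed, 17 were tested, 2 were called higher and none lower, while 15 of the 17 log2 fold changes were above 0 (median 0.37). ARF4 (VIT_206s0004g03130, chr6:3878777-3889544) had 19.4, 18.8 and 26.4 FPKM in NAA100 libraries, against 5.02, 11.2 and 4.65 FPKM in Control libraries (log2 fold change 1.58 ± 0.26 SE, limma adjusted p = 4.14e-05). ARF3 (VIT_210s0003g00420, chr10:1694778-1705103) had 45.1, 44.3 and 51.3 FPKM in NAA100 libraries, against 16.1, 25.5 and 18.8 FPKM in Control libraries (log2 fold change 1.20 ± 0.14 SE, limma adjusted p = 4.54e-07). In both, each NAA100 library was above each Control library, and Control library 2 was the highest of the Control libraries. ARF3 and ARF4 are related factors known from Arabidopsis for their part in organ polarity.

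Genes that inactivate auxin were among those with the largest rises. Of the 5 GH3 genes tested (9 listed), 3 were higher and none was lower, with a median log2 fold change of 1.23. GH3.1 (VIT_207s0129g00660, chr7:15895035-15898003), which joins indole-3-acetic acid to amino acids, had 86.4, 87.7 and 170.0 FPKM in NAA100 libraries, against 3.97, 66 and 2.35 FPKM in Control libraries (log2 fold change 3.40 ± 0.80 SE, limma adjusted p = 0.00201). Control library 2 was the highest of the Control values by far, although still below all NAA100 values. The GH3.1 log2 fold change was 4.75 without Control library 2, and its call was lost without NAA100 library 3 (3.08), Control library 1 (2.87) or Control library 3 (2.59). A further GH3 enzyme (VIT_203s0091g00310, chr3:6633349-6636203) was above its Control values in every NAA100 library, with 312, 258 and 250.5 FPKM in NAA100 libraries, against 119.6, 122 and 105 FPKM in Control libraries (log2 fold change 1.23 ± 0.20 SE, limma adjusted p = 3.3e-05). GH3.9 (VIT_207s0005g00090) had 8.84, 7.64 and 13.7 FPKM in NAA100 libraries, against 2.28, 7.75 and 1.92 FPKM in Control libraries (log2 fold change 1.30 ± 0.28 SE, limma adjusted p = 0.000762). The GH3.9 values overlapped, since Control library 2 exceeded NAA100 library 2, and its call was lost without NAA100 library 3 (1.08), Control library 1 (1.09) or Control library 3 (1.01). Leaving out any 1 of those 3 libraries left 1 GH3 gene called rather than 3.

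A gene described as a DAO-like 2-oxoglutarate-dependent dioxygenase (VIT_204s0044g02010, chr4:23794538-23796684), the family that oxidises indole-3-acetic acid in Arabidopsis, had 36.1, 26.6 and 28.4 FPKM in NAA100 libraries, against 1.49, 5.52 and 2.41 FPKM in Control libraries (log2 fold change 3.03 ± 0.37 SE, limma adjusted p = 7.72e-07). This gene was in no list and was chosen after its values were seen. Its lowest NAA100 value was several times its highest Control value, and it remained called in each of the 6 fits that left out 1 library.

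The SAUR genes, small auxin-induced genes known for promoting cell expansion, were mostly near the limit of detection. Of 49 listed, 17 passed the filter on low values, 3 were higher and none was lower (median log2 fold change 0.28). All 3 were below 6 FPKM and were chosen after their values were seen. The highest of them (VIT_202s0154g00010) had 5.51, 3.17 and 2.88 FPKM in NAA100 libraries, against 0.426, 1.45 and 0.884 FPKM in Control libraries (log2 fold change 1.33 ± 0.24 SE, limma adjusted p = 0.00015). The other pair, VIT_203s0038g01090 and VIT_203s0038g01110, lie beside each other on chromosome 3 and had log2 fold changes of 1.28 and 1.08. VIT_203s0038g01090 was lost without Control library 1 (0.94), NAA100 library 2 (1.19) or NAA100 library 3 (1.27). VIT_203s0038g01110, whose groups overlapped, was lost without Control library 1 (0.93), Control library 3 (0.97) or NAA100 library 3 (0.78). The SAUR count was 1 without NAA100 library 3 or Control library 1 and 5 without Control library 2.

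Among the carriers that move auxin between cells, 13 were listed and 10 tested, 4 were higher and none was lower (median log2 fold change 0.56). The efflux carrier described as component 8 (VIT_204s0023g00320, chr4:16483664-16487504) had 16.8, 14.3 and 16.8 FPKM in NAA100 libraries, against 3.51, 6.85 and 2.36 FPKM in Control libraries (log2 fold change 1.78 ± 0.23 SE, limma adjusted p = 1.21e-06). Every NAA100 library exceeded every Control library. An AUX1/LAX-type influx carrier, VIT_203s0038g02140 (log2 fold change 1.29), was also higher, had less than 2 FPKM in all Control libraries, and was chosen after its values were seen.

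The receptors and the synthesis genes held no called member. Of the 6 TIR1/AFB genes tested (9 listed), limma called none, while 4 had an unadjusted p under 0.05 (40.4% over all genes), and their median log2 fold change was −0.23. AFB2 (VIT_214s0068g01330, chr14:25055630-25060756) was the most abundant receptor gene, with 33.3, 37.7 and 39.6 FPKM in NAA100 libraries, against 65.2, 54.6 and 59.2 FPKM in Control libraries (log2 fold change −0.68 ± 0.10 SE, limma adjusted p = 1.04e-05), which is short of the fold required for a call. Its NAA100 libraries were all below its Control libraries. A TIR1 gene (VIT_214s0030g01240) showed the same order, with 12.9, 10.8 and 10.1 FPKM in NAA100 libraries, against 15.5, 16.8 and 16.6 FPKM in Control libraries (log2 fold change −0.50 ± 0.15 SE, limma adjusted p = 0.0132). Another TIR1 gene (VIT_200s0181g00040) had the opposite order, with 8.86, 10.8 and 11.3 FPKM in NAA100 libraries, against 7.22, 6.84 and 7.27 FPKM in Control libraries (log2 fold change 0.48 ± 0.11 SE, limma adjusted p = 0.00224). Of the 7 TAR and YUC genes of auxin synthesis tested (16 listed), limma called none and 3 had an unadjusted p under 0.05, a share near that of all genes, in both directions, with log2 fold changes between −0.62 and 0.72. LOB domain factors, of which some are auxin-induced in lateral root formation, counted 1 higher and 1 lower of 13 tested. The lower one, LBD38 (VIT_203s0091g00670), had 2.59, 1.58 and 2.60 FPKM in NAA100 libraries, against 7.91, 6.65 and 8.85 FPKM in Control libraries (log2 fold change −1.44 ± 0.22 SE, limma adjusted p = 1.96e-05).

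**Figure D2:**
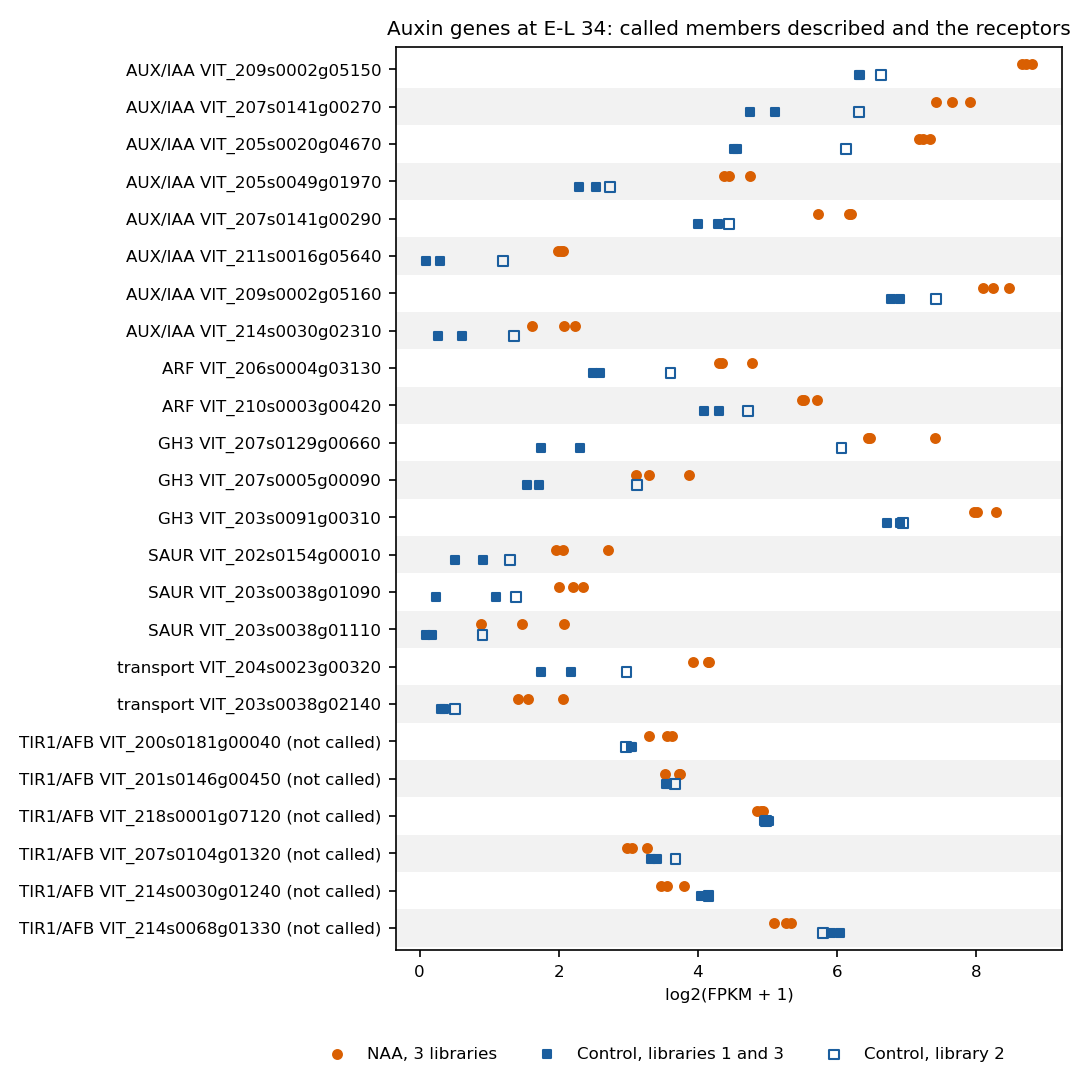
Auxin genes at E-L 34, each on its own line with log2(FPKM + 1) on the horizontal axis, the 3 NAA100 libraries as orange circles, Control libraries 1 and 3 as filled blue squares and Control library 2 as an open square. The called AUX/IAA, ARF, GH3 and SAUR genes and the 2 transport genes shown lie on average further to the right in NAA100, with Control library 2 often between the groups, while the 6 receptor genes at the bottom were not called and differ by no more than 0.68 on the log2 scale.

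The heat shock genes were the gene group with the most calls. Of 71 genes listed as heat shock proteins and heat shock factors, 58 were tested, 35 were higher with NAA100 and none was lower, with a median log2 fold change of 1.51 and 56 of the 58 above 0. Without Control library 2 the count was 36, and it lay between 28 and 36 over the 6 fits that left out 1 library. The small heat shock proteins, chaperones that hold unfolding proteins in solution, gave 27 of the 35 calls from 32 genes tested (median log2 fold change 2.44). The larger chaperones gave 3 of 7 in the HSP90 class, 1 of 4 in the HSP70 class and the single HSP101 gene tested. Of the 35, 11 lie on chromosome 13 between positions 2689279 and 4234852, and 8 lie on chromosome 4. Many of these are tandem copies with closely similar descriptions, between which reads may have been shared, so that the members of a cluster are not independent of each other.

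The largest rise of any gene with a mean of at least 10 FPKM was that of a 17.3 kDa class II small heat shock protein (VIT_204s0008g01570, chr4:1244737-1246530), with 33, 42.8 and 48.8 FPKM in NAA100 libraries, against 2.35, 2.43 and 0.969 FPKM in Control libraries (log2 fold change 3.89 ± 0.47 SE, limma adjusted p = 5.55e-07). HSP83, an HSP90-type chaperone (VIT_202s0025g00280, chr2:412404-416196), had 66.9, 47.7 and 50.4 FPKM in NAA100 libraries, against 2.64, 4.70 and 1.75 FPKM in Control libraries (log2 fold change 3.85 ± 0.46 SE, limma adjusted p = 5.86e-07). An HSP83-like gene on chromosome 16 (VIT_216s0050g01150, chr16:18053948-18057385) had 35.8, 46.1 and 50.6 FPKM in NAA100 libraries, against 2.73, 5.37 and 1.70 FPKM in Control libraries (log2 fold change 3.48 ± 0.31 SE, limma adjusted p = 4.22e-09). In these 3 genes the lowest NAA100 value was more than 6 times the highest Control value. On chromosome 13, the 18.2 kDa class I genes VIT_213s0019g02840, VIT_213s0019g02770 and VIT_213s0019g02780 had log2 fold changes of 3.57, 3.50 and 3.32. The most abundant of them (VIT_213s0019g02780, chr13:4015394-4016080) had 242, 278 and 272 FPKM in NAA100 libraries, against 23.8, 41.1 and 16.7 FPKM in Control libraries. The chloroplast small heat shock protein (VIT_201s0010g02290, chr1:19257287-19258884) had 29.1, 35.9 and 29.9 FPKM in NAA100 libraries, against 2.46, 4.17 and 1.42 FPKM in Control libraries (log2 fold change 3.21 ± 0.33 SE, limma adjusted p = 5.11e-08). None of the Control values of these genes overlapped with NAA100, and Control library 2 was the highest Control library in all of them.

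Further heat shock genes, named after their values were seen, showed the same order. HSP101 (VIT_217s0000g07190), the disaggregating chaperone, had 142, 127 and 123 FPKM in NAA100 libraries, against 13.1, 23.2 and 9.98 FPKM in Control libraries (log2 fold change 3.08 ± 0.32 SE, limma adjusted p = 6.55e-08). A heat shock cognate 70 kDa gene (VIT_206s0004g04470) had 342, 281 and 264 FPKM in NAA100 libraries, against 45, 64.3 and 51.7 FPKM in Control libraries (log2 fold change 2.45 ± 0.20 SE, limma adjusted p = 9.9e-10). Outside the list, the heat shock factor HSF30 (VIT_204s0008g01110, chr4:921542-923980), a class A-2 type factor in tomato, had 25.9, 38.5 and 49.5 FPKM in NAA100 libraries, against 3.30, 6.75 and 2.16 FPKM in Control libraries (log2 fold change 3.0 ± 0.28 SE, limma adjusted p = 1.26e-08). The 70 kDa heat shock protein 8 (VIT_205s0020g03330) had 28.4, 36.9 and 39.8 FPKM in NAA100 libraries, against 5.22, 7.74 and 4.86 FPKM in Control libraries (log2 fold change 2.38 ± 0.17 SE, limma adjusted p = 1.31e-10). Of the 9 heat shock factors in the list, 1 was called, A-2e (VIT_208s0007g03900, log2 fold change 1.15), and that call was lost without Control library 1 (0.90) or NAA100 library 1 (0.96). The factor A-1b (VIT_216s0039g01840), of the class that starts the heat response in tomato and Arabidopsis, had 17.5, 17.8 and 20.2 FPKM in NAA100 libraries, against 26.8, 24.4 and 27.4 FPKM in Control libraries (log2 fold change −0.48 ± 0.08 SE, limma adjusted p = 3.94e-05), a small difference in the other direction.

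Light-harvesting genes were higher as well. Of 47 genes for photosystem and light-harvesting proteins, 36 were tested, 11 were higher and none was lower, and 33 of the 36 log2 fold changes were above 0 (median 0.50). All 11 were genes for chlorophyll a-b binding antenna proteins except a subunit O gene of photosystem I (VIT_206s0080g00920, log2 fold change 1.19). The antenna protein CP24 (VIT_212s0055g01110, chr12:14704891-14706817) had 25.5, 25.6 and 30.8 FPKM in NAA100 libraries, against 5.74, 8.08 and 3.78 FPKM in Control libraries (log2 fold change 2.09 ± 0.19 SE, limma adjusted p = 7.87e-09). Antenna protein 4 of photosystem I (VIT_217s0000g06350, chr17:6885826-6887739) had 54.8, 59.7 and 78.9 FPKM in NAA100 libraries, against 13.5, 21.2 and 13.7 FPKM in Control libraries (log2 fold change 1.94 ± 0.20 SE, limma adjusted p = 6.04e-08). An LHCII type 1 gene (VIT_210s0003g02900, chr10:5026578-5027393) had 133, 129 and 142 FPKM in NAA100 libraries, against 38, 39.2 and 39.6 FPKM in Control libraries (log2 fold change 1.76 ± 0.30 SE, limma adjusted p = 6.48e-05). The 3 Control values of the LHCII gene lay within 2 FPKM of each other, far below the NAA100 values. The reaction centre and oxygen-evolving subunits were not called apart from subunit O, and the nearest of them, subunit psaK of photosystem I (VIT_210s0003g04350), had a log2 fold change of 0.98, both being chosen after their values were seen. In the Calvin cycle, 1 of 13 genes tested was higher and none was lower. It encodes the beta subunit of the chaperonin that binds the Rubisco large subunit (VIT_206s0004g00240), with 171, 189 and 178 FPKM in NAA100 libraries, against 76.9, 88.2 and 68.5 FPKM in Control libraries (log2 fold change 1.20 ± 0.09 SE, limma adjusted p = 1.76e-10).

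The heat shock and light-harvesting differences between NAA100 and Control each changed between stages, for which collection days may have differed between treatments. The mean log2(FPKM + 1) over the heat shock list was 4.80, 5.06 and 5.23 in NAA100 libraries and 3.23, 3.74 and 3.10 in Control libraries at E-L 34. With NAA100 against Control, 35 heat shock genes were higher and 0 lower at E-L 34. The count was 10 higher and 0 lower a stage later, 2 higher and 22 lower at E-L 36, and 2 in each direction at E-L 38. Of all genes tested, 1.28% were called higher and 1.16% lower at E-L 35, 9.05% higher and 10.8% lower at E-L 36, and 0.398% higher and 3.02% lower at E-L 38. The median log2 fold change of the list was 1.51, 0.72, −0.85 and 0.32 over these 4 stages. The test of the difference itself, the NAA100 effect at E-L 34 minus that at E-L 36, was called higher for 38 of the 58 genes (13.6% of all genes) and lower for none (8.75%). For light-harvesting and photosystem genes the calls were 11 higher and 0 lower at E-L 34, 15 higher and 0 lower a stage later, 1 higher and 19 lower at E-L 36, and 1 higher and 0 lower at E-L 38. Here too the difference between E-L 34 and E-L 36 was called higher for 25 of 36 genes and lower for 1.

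**Figure D3:**
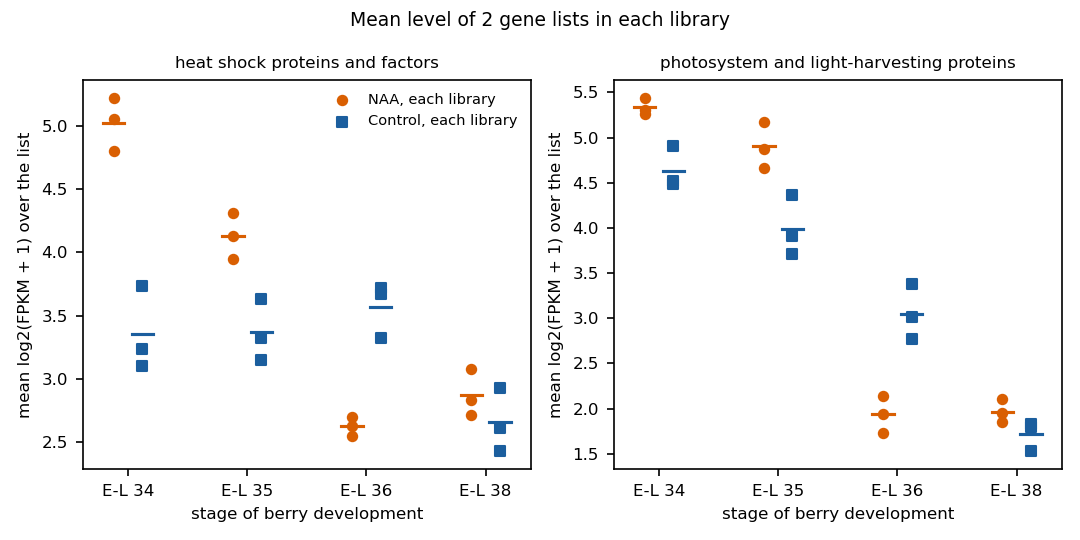
Mean log2(FPKM + 1) over the 58 heat shock genes (left) and the 36 photosystem and light-harvesting genes (right) in each library, with NAA100 as orange circles and Control as blue squares at each stage, and bars for the group means. Heat shock means of NAA100 libraries are 4.80 to 5.23 at E-L 34, above Control at 3.10 to 3.74, and lie below Control at E-L 36, and the photosystem means change sides in the same way.

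CYP78A5 stood out among the abundant genes. This cytochrome P450 (VIT_217s0000g05110, chr17:5600225-5602640), whose Arabidopsis relative is known for promoting organ growth, had 1421, 1376 and 1392 FPKM in NAA100 libraries, against 115, 178 and 113 FPKM in Control libraries (log2 fold change 3.39 ± 0.36 SE, limma adjusted p = 8.74e-08). The 3 NAA100 values were nearly equal, and none was near a Control value. Among abundant genes outside the lists, chosen after their values were seen, an early nodulin-75-like gene (VIT_205s0049g00550) had 1968, 1845 and 1443 FPKM in NAA100 libraries, against 298, 269 and 495 FPKM in Control libraries (log2 fold change 2.34 ± 0.29 SE, limma adjusted p = 8.38e-07). A second gene of that description on the same chromosome, VIT_205s0049g00770, moved the other way, with a log2 fold change of −2.72.

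The largest difference of all was the fall of VVTL1, and other pathogenesis-related proteins of the kind that ripening grape berries store were among the 10 largest falls. VVTL1 (VIT_202s0025g04330, chr2:3821899-3822797) is a thaumatin-like protein of the grape berry and had 21, 21.5 and 11.8 FPKM in NAA100 libraries, against 2548, 1178 and 1481 FPKM in Control libraries (log2 fold change −6.47 ± 0.53 SE, limma adjusted p = 8.03e-10). Its NAA100 values were a small fraction of its Control values. Protein P21 (VIT_202s0025g04300, chr2:3808937-3809791), a further thaumatin-like gene on chromosome 2, had 18.4, 23 and 11.9 FPKM in NAA100 libraries, against 263, 176 and 254 FPKM in Control libraries (log2 fold change −3.65 ± 0.50 SE, limma adjusted p = 3.26e-06). A class IV chitinase (VIT_205s0094g00340, chr5:23657612-23659290) had 158, 145 and 79.3 FPKM in NAA100 libraries, against 2024, 1044 and 1832 FPKM in Control libraries (log2 fold change −3.67 ± 0.25 SE, limma adjusted p = 5.42e-11). All NAA100 libraries lay below all Control libraries in these genes, and without Control library 2 the differences were slightly larger. Over the list of chitinases, thaumatin-like and other pathogenesis-related proteins, which did not hold VVTL1 and P21, 67 genes were tested (121 listed). Of them 6 were higher (8.96%) and 8 lower (11.9%), both above the 2.25% and 1.54% over all genes. The median log2 fold change was 0.15, so that the list as a whole did not go one way. Among the lower ones were chitinase 1-like (VIT_215s0046g01590), with 4.09, 5.98 and 5.21 FPKM in NAA100 libraries, against 31.8, 18.8 and 33.9 FPKM in Control libraries (log2 fold change −2.23 ± 0.34 SE, limma adjusted p = 1.41e-05). A beta-1,3-glucanase (VIT_208s0007g06040) had 67.5, 85.4 and 59.9 FPKM in NAA100 libraries, against 357, 252 and 325 FPKM in Control libraries (log2 fold change −2.12 ± 0.27 SE, limma adjusted p = 1.24e-06). Grip22, a ripening-related protein of grape (VIT_206s0004g02560), and a ripening-related protein-like gene (VIT_200s0187g00160) were in no list, were chosen after their values were seen, and had log2 fold changes of −2.11 and −3.39. A gene described as a 21 kDa protein (VIT_200s0323g00070, unplaced sequence, 23332325-23333231), one of the 10 largest falls, had 4.23, 7.82 and 1.13 FPKM in NAA100 libraries, against 127, 69.1 and 53.5 FPKM in Control libraries (log2 fold change −4.09 ± 0.46 SE, limma adjusted p = 2.23e-07).

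Pectin-degrading enzymes held some of the deepest falls and also some rises. Of 96 listed genes for pectate lyases, pectin esterases and polygalacturonases, 41 were tested, 3 were higher and 5 lower (median log2 fold change 0.10). Pectate lyase 5 (VIT_217s0000g09810, chr17:11675130-11676755) had 10.7, 16.1 and 12.2 FPKM in NAA100 libraries, against 369, 211 and 234 FPKM in Control libraries (log2 fold change −4.26 ± 0.38 SE, limma adjusted p = 3.91e-09). The neighbouring model, which carries no description in the table (VIT_217s0000g09800, chr17:11674728-11675129), had 2.83, 5.79 and 3.70 FPKM in NAA100 libraries, against 84.4, 56.6 and 49.9 FPKM in Control libraries (log2 fold change −3.67 ± 0.38 SE, limma adjusted p = 4.7e-08). The end and start of these models are neighbouring bases, so they are not independent observations. A polygalacturonase (VIT_208s0007g08330, chr8:21672718-21675815), which cuts the pectin backbone, had 38.7, 31.6 and 11.2 FPKM in NAA100 libraries, against 361, 211 and 256 FPKM in Control libraries (log2 fold change −3.43 ± 0.33 SE, limma adjusted p = 1.29e-08). Pectinesterase 25 (VIT_213s0047g00230) had 2.19, 1.42 and 3.46 FPKM in NAA100 libraries, against 9.73, 7.96 and 10.7 FPKM in Control libraries (log2 fold change −1.68 ± 0.24 SE, limma adjusted p = 5.05e-06). In all of these the groups stood apart. Among the higher members was the polygalacturonase QRT3 (VIT_201s0011g01300, log2 fold change 1.19). Pectinesterase 12 (VIT_211s0016g00300) was higher by 1.05, a call lost without Control library 1 (0.82), Control library 3 (0.94) or NAA100 library 3 (0.88).

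Expansins loosen the wall without cutting it, and 6 of the 15 tested were lower and 1 higher (24 listed, median log2 fold change −0.69). Expansin-B2 (VIT_215s0021g02700, chr15:13735749-13737845) had 12.5, 16.6 and 15.4 FPKM in NAA100 libraries, against 173, 108 and 159 FPKM in Control libraries (log2 fold change −3.20 ± 0.23 SE, limma adjusted p = 1.13e-10). An expansin-A10 gene on chromosome 1 (VIT_201s0026g02620, chr1:12259928-12262090) had 2.09, 2.34 and 3.06 FPKM in NAA100 libraries, against 12.4, 9.45 and 16 FPKM in Control libraries (log2 fold change −1.94 ± 0.37 SE, limma adjusted p = 0.00023). A second expansin-A10 gene, on chromosome 17 (VIT_217s0053g00990, chr17:16771843-16774202), had 67, 67.9 and 42.6 FPKM in NAA100 libraries, against 252, 178 and 239 FPKM in Control libraries (log2 fold change −1.91 ± 0.45 SE, limma adjusted p = 0.00215). NAA100 and Control values did not overlap in these genes, but the call of VIT_217s0053g00990 was lost without NAA100 library 3 (−1.69), Control library 1 (−1.81) or Control library 3 (−1.85). A further expansin-A10 gene, VIT_206s0004g00070, chosen after its values were seen, had a log2 fold change of −1.49. The most abundant expansin called, expansin-A8 (VIT_213s0067g02930), also chosen after its values were seen, had 367, 423 and 399.7 FPKM in NAA100 libraries, against 1251, 643 and 835 FPKM in Control libraries (log2 fold change −1.14 ± 0.32 SE, limma adjusted p = 0.00841), and only the fit without Control library 2 kept its call, the other values lying between −0.89 and −1.19. The expansin count of 6 became 3 without NAA100 library 3 or Control library 3. Of the 28 xyloglucan endotransglucosylase/hydrolases (XTH) tested, 1 was lower and 1 higher, beside 1.54% lower and 2.25% higher over all genes. The lower one (VIT_206s0061g00550, chr6:18027459-18029982), the most abundant wall enzyme named here, had 496, 561 and 323 FPKM in NAA100 libraries, against 2309, 1280 and 1848 FPKM in Control libraries (log2 fold change −1.97 ± 0.21 SE, limma adjusted p = 7.62e-08). The mannan-cutting mannosidase 5 (VIT_218s0089g00160, chr18:27911708-27913748) had 0.372, 0.875 and 1.10 FPKM in NAA100 libraries, against 26.5, 18.1 and 13.2 FPKM in Control libraries (log2 fold change −3.48 ± 0.36 SE, limma adjusted p = 4.54e-08). Of 38 cellulose synthase and endoglucanase genes, 1 was higher and 3 lower, and of 24 fasciclin-like, extensin and arabinogalactan protein genes, 2 were higher and 4 lower. Arabinogalactan peptide 20 (VIT_215s0046g01360) fell by 1.91 on the log2 scale, and an extensin-related protein (VIT_205s0049g00750) rose by 2.57. Laccases and lignin peroxidases counted 1 higher and 1 lower of 23 tested.

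Aquaporins, the water channels of the plasma membrane and the vacuole, counted 0 higher and 4 lower of 20 tested (24 listed), with a median log2 fold change of −0.18. An aquaporin matched to the tonoplast type TIP1-3 (VIT_213s0019g00330, chr13:2428793-2430926) had 45.8, 46.5 and 34.4 FPKM in NAA100 libraries, against 386, 292 and 287 FPKM in Control libraries (log2 fold change −2.90 ± 0.43 SE, limma adjusted p = 1.14e-05). One matched to TIP4-3 (VIT_203s0038g01380) had 1.18, 1.20 and 1.79 FPKM in NAA100 libraries, against 17.1, 11 and 11.3 FPKM in Control libraries (log2 fold change −2.55 ± 0.25 SE, limma adjusted p = 2.23e-08). One matched to TIP1-1 (VIT_208s0007g04780) had 91.2, 85.7 and 53.7 FPKM in NAA100 libraries, against 272, 213 and 289.9 FPKM in Control libraries (log2 fold change −1.76 ± 0.29 SE, limma adjusted p = 3.66e-05). None of these showed overlap between NAA100 and Control. Without Control library 2, 6 aquaporin genes were lower. The most abundant aquaporin called, VIT_213s0019g04280, a plasma membrane type chosen after its values were seen, had a log2 fold change of −1.29.

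**Figure D4:**
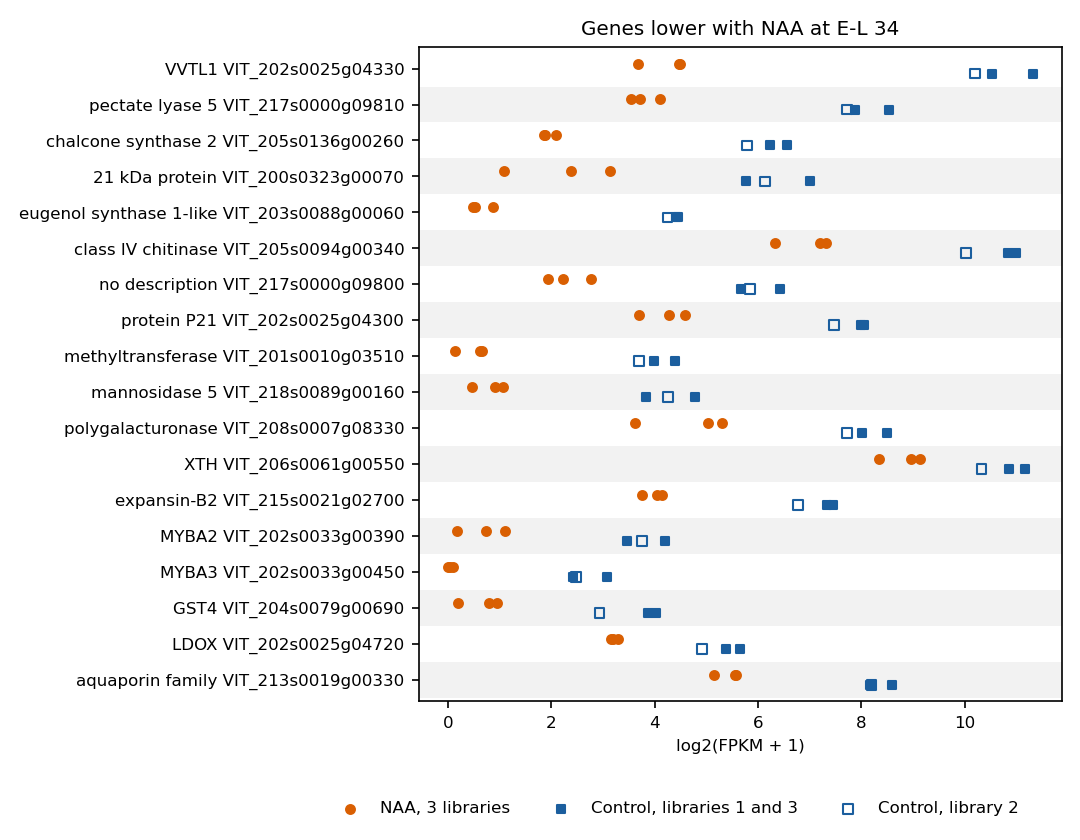
Genes lower with NAA100 at E-L 34, each on its own line with log2(FPKM + 1) on the horizontal axis, NAA100 libraries as orange circles, Control libraries 1 and 3 as filled blue squares and Control library 2 as an open square. In every line the NAA100 libraries lie to the left of all Control libraries, with log2 fold changes of −6.47 for VVTL1 and −1.97 for the XTH gene.

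The regulators of berry colour were barely detectable in NAA100 berries. MYB factors of the A type turn on the last steps of anthocyanin synthesis in grape skin, and all 4 MYB calls among 57 tested (117 listed) were falls, while the median of the list was 0.01. VvMYBA2 (VIT_202s0033g00390, chr2:14179728-14180733) had 1.14, 0.662 and 0.133 FPKM in NAA100 libraries, against 17.3, 12.4 and 10.04 FPKM in Control libraries (log2 fold change −3.13 ± 0.40 SE, limma adjusted p = 1.34e-06). VvMYBA3 (VIT_202s0033g00450, chr2:14308288-14309480) had 0.0707, 0 and 0.0329 FPKM in NAA100 libraries, against 7.38, 4.55 and 4.35 FPKM in Control libraries (log2 fold change −2.60 ± 0.42 SE, limma adjusted p = 3.41e-05). In both, the NAA100 values were near 1 FPKM or less and far from the Control values. VIT_202s0033g00410, which the study names VviMYBA1, lies between them on chromosome 2 and was chosen after its values were seen. This gene had 0.119, 0.110 and 0 FPKM in NAA100 libraries, against 3.26, 1.39 and 1.87 FPKM in Control libraries. It fell by 1.52 on the log2 scale, a call lost without Control library 1 (−1.28). A MYB108-type gene (VIT_207s0005g01950) had 7.87, 3.18 and 4.30 FPKM in NAA100 libraries, against 11.3, 12 and 16 FPKM in Control libraries (log2 fold change −1.26 ± 0.29 SE, limma adjusted p = 0.00172). It was lost without NAA100 library 2 (−1.03), NAA100 library 3 (−1.20) or Control library 3 (−1.12).

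Some enzymes and transporters of the same pathway were lower too. Chalcone synthase 2 (VIT_205s0136g00260, chr5:13597238-13599692), which makes the flavonoid backbone, had 2.63, 3.25 and 2.68 FPKM in NAA100 libraries, against 93.2, 54.3 and 73.9 FPKM in Control libraries (log2 fold change −4.25 ± 0.60 SE, limma adjusted p = 5.74e-06). Leucoanthocyanidin dioxygenase (VIT_202s0025g04720, chr2:4282027-4284085), which acts late in anthocyanin synthesis, had 7.94, 8.71 and 8.17 FPKM in NAA100 libraries, against 48.9, 29.2 and 40.5 FPKM in Control libraries (log2 fold change −2.10 ± 0.36 SE, limma adjusted p = 7.68e-05). A glutathione S-transferase of chromosome 4 (VIT_204s0079g00690, chr4:11504521-11507410) had 0.740, 0.147 and 0.936 FPKM in NAA100 libraries, against 13.6, 6.63 and 15.2 FPKM in Control libraries (log2 fold change −2.96 ± 0.69 SE, limma adjusted p = 0.00193). Its call was lost without NAA100 library 2 (−2.73), Control library 1 (−2.82) or Control library 3 (−2.75). A TRANSPARENT TESTA 12-like transporter (VIT_216s0050g00910), chosen after its values were seen, had 1.42, 1.37 and 2.54 FPKM in NAA100 libraries, against 31.3, 17.7 and 21.7 FPKM in Control libraries (log2 fold change −3.13 ± 0.54 SE, limma adjusted p = 8.42e-05). A gene whose UniProt match is a flavonoid methyltransferase (VIT_201s0010g03510, chr1:20850068-20852679) had 0.583, 0.0902 and 0.543 FPKM in NAA100 libraries, against 20.1, 12 and 14.8 FPKM in Control libraries (log2 fold change −3.55 ± 0.61 SE, limma adjusted p = 7.67e-05). In all of these, every NAA100 value was below every Control value. Of 25 flavonoid genes tested (44 listed), 1 was higher and 2 lower, so most of the pathway was not called, and the higher one, a flavonol synthase-type gene (VIT_202s0025g02970, log2 fold change 1.07), was lost without NAA100 library 1 (0.79) or Control library 1 (0.95). Other phenolic genes moved little, since the 21 genes of phenylpropanoid entry counted 1 higher and 0 lower. Glutathione S-transferases as a family counted 1 higher and 3 lower of 52 (1.92% and 5.77%), beside 2.25% higher and 1.54% lower over all genes. UDP-glycosyltransferases counted 5 higher and 0 lower of 48 (10.4% higher, median log2 fold change 0.30), above the share of all genes. A eugenol synthase 1-like gene (VIT_203s0088g00060, chr3:8069862-8072808), of a family that makes phenylpropene scent compounds, had 0.388, 0.830 and 0.434 FPKM in NAA100 libraries, against 20.7, 18 and 20.2 FPKM in Control libraries (log2 fold change −3.74 ± 0.29 SE, limma adjusted p = 3.46e-10).

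NAC factors, of which several are known as regulators of ripening in fleshy fruit, counted 0 higher and 3 lower of 31 tested. The gene described as NAC 29 (VIT_201s0026g02710, chr1:12441861-12443320) had 16.2, 15.8 and 16.5 FPKM in NAA100 libraries, against 75.2, 72 and 73.9 FPKM in Control libraries (log2 fold change −2.12 ± 0.28 SE, limma adjusted p = 2.62e-06). The libraries of each group were nearly equal in this gene. The gene described as NAC 67 (VIT_208s0007g07670, chr8:21133911-21136937) had 7.05, 5.45 and 4.33 FPKM in NAA100 libraries, against 24.3, 17 and 20.8 FPKM in Control libraries (log2 fold change −1.72 ± 0.20 SE, limma adjusted p = 2.99e-07). NAC 72 (VIT_219s0014g03290) fell by 1.03 on the log2 scale, which was lost without NAA100 library 3 (−0.94) or Control library 3 (−0.99). Of 35 WRKY factors tested, 1 was lower (VIT_217s0000g01280), with 7.79, 7.57 and 9.11 FPKM in NAA100 libraries, against 22.3, 16.9 and 19.2 FPKM in Control libraries (log2 fold change −1.16 ± 0.16 SE, limma adjusted p = 5.74e-06). Homeobox-leucine zipper factors counted 1 higher and 1 lower of 29, namely HAT4 (VIT_200s0299g00100, log2 fold change 1.07) and ATHB-12 (VIT_215s0048g02870, −1.09). Over all genes tested 2.25% were higher and 1.54% lower, so the WRKY and homeobox counts are near those shares. The HAT4 call was lost without NAA100 library 3 (0.93), Control library 1 (0.91) or Control library 3 (0.98), and the ATHB-12 call without NAA100 library 1 (−1.02), NAA100 library 3 (−1.05), Control library 1 (−0.91) or Control library 3 (−1.09).

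For abscisic acid, the hormone that precedes ripening in grape, a synthesis gene and a receptor gene were lower. Of 18 genes of ABA synthesis and breakdown tested, 2 were higher and 2 lower, and both higher genes were carotenoid cleavage dioxygenases that the list shares with the carotenoid cleavage list. The 9-cis-epoxycarotenoid dioxygenase (NCED) described as NCED1 (VIT_219s0093g00550, chr19:17645348-17647649), of the family that makes the ABA precursor, had 67.8, 54.5 and 39.98 FPKM in NAA100 libraries, against 238, 168 and 220.0 FPKM in Control libraries (log2 fold change −1.95 ± 0.30 SE, limma adjusted p = 1.73e-05). Its groups did not overlap. In core ABA signalling, 1 of 28 was higher and 2 lower, among them a gene of the PYR/PYL receptor family (VIT_202s0012g01270), with 4.36, 6.46 and 4.51 FPKM in NAA100 libraries, against 21.2, 15.9 and 19.9 FPKM in Control libraries (log2 fold change −1.72 ± 0.29 SE, limma adjusted p = 4.78e-05). The PP2C phosphatase VIT_216s0050g02680 fell by 1.42 on the log2 scale, which was lost without NAA100 library 3 (−1.41) or Control library 1 (−1.27). The SnRK2 kinase VIT_207s0197g00080 was the higher one (log2 fold change 1.01), lost without NAA100 library 3 (0.83) or Control library 1 (0.91). The AFP1-like gene VIT_200s0216g00060, of a family that binds ABA response factors in Arabidopsis, was in no list, was chosen after its values were seen, and fell by 3.38 on the log2 scale.

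Carotenoid genes moved in both directions. Carotenoid cleavage dioxygenase 4 (CCD4; VIT_202s0087g00910, chr2:18560696-18562591), which cleaves carotenoids to norisoprenoid aroma compounds, had 38.1, 32.7 and 37.4 FPKM in NAA100 libraries, against 1.88, 3.48 and 1.26 FPKM in Control libraries (log2 fold change 3.59 ± 0.42 SE, limma adjusted p = 3.64e-07). A second CCD4 gene nearby (VIT_202s0087g00930, chr2:18588853-18590786) had 20.9, 20.6 and 20.9 FPKM in NAA100 libraries, against 9.19, 4.91 and 5.97 FPKM in Control libraries (log2 fold change 1.54 ± 0.30 SE, limma adjusted p = 0.000285). Every NAA100 library was above every Control library in both CCD4 genes, the only calls among 5 carotenoid cleavage genes tested. In carotenoid synthesis, 1 of 13 was higher and 2 lower, and the higher one was beta-carotene hydroxylase 2 (VIT_216s0050g01090, chr16:18016911-18018982), with 26.2, 24.2 and 32.9 FPKM in NAA100 libraries, against 6.83, 9.06 and 6.39 FPKM in Control libraries (log2 fold change 1.77 ± 0.21 SE, limma adjusted p = 3.75e-07). Zeta-carotene desaturase (VIT_214s0030g01740) fell by 1.09, lost without Control library 1 (−0.95), and phytoene synthase 2 (VIT_212s0028g00960) fell by 1.02, lost without NAA100 library 1 (−0.95), Control library 1 (−0.94) or Control library 2 (−0.98).

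Genes of other hormones gave 0 to 8 calls a list, in shares that for several lists were above the 2.25% called higher over all genes. In ethylene synthesis, 2 of 17 genes were higher and 1 lower. The lower one was ACC oxidase 5 (VIT_213s0047g00210), which performs the last step of ethylene synthesis, with 1.44, 2.71 and 2.92 FPKM in NAA100 libraries, against 14.4, 10.1 and 14.9 FPKM in Control libraries (log2 fold change −2.09 ± 0.29 SE, limma adjusted p = 5.01e-06). A second ACC oxidase (VIT_200s2086g00010) had 45.6, 43.9 and 42.9 FPKM in NAA100 libraries, against 14, 24.9 and 21.3 FPKM in Control libraries (log2 fold change 1.13 ± 0.20 SE, limma adjusted p = 7.63e-05), a call lost without Control library 1 (0.91). AP2/ERF factors counted 7 higher and 1 lower of 62 (median log2 fold change 0.30). Their largest rise was RAP2-7 (VIT_208s0040g03180), with 4.98, 5.83 and 5.71 FPKM in NAA100 libraries, against 0.878, 1.45 and 1.16 FPKM in Control libraries (log2 fold change 1.60 ± 0.18 SE, limma adjusted p = 2.38e-07). In gibberellin metabolism, 1 of 15 was higher and none lower, the gibberellin 2-oxidase 8-like gene (VIT_219s0177g00030, chr19:5864333-5867937), which inactivates gibberellin, with 25.5, 30.7 and 61.1 FPKM in NAA100 libraries, against 5.13, 12 and 4.59 FPKM in Control libraries (log2 fold change 2.29 ± 0.31 SE, limma adjusted p = 2.79e-06). In cytokinin metabolism and response, 1 of 40 was higher and 1 lower, near the shares over all genes, and both were cytokinin dehydrogenases. The higher one, dehydrogenase 7 (VIT_204s0008g01880, log2 fold change 1.02), was lost without NAA100 library 1 (0.98), NAA100 library 3 (0.95), Control library 1 (0.88) or Control library 3 (0.81). The lower one, dehydrogenase 3 (VIT_211s0016g02110), was chosen after its values were seen. It had 0.0426, 0.198 and 0.0595 FPKM in NAA100 libraries, against 3.84, 3.78 and 4.54 FPKM in Control libraries (log2 fold change −2.20 ± 0.38 SE, limma adjusted p = 6.75e-05). Of 25 brassinosteroid synthesis and signalling genes tested, 3 were higher and none lower. The largest rise was that of a CYP734A1-like gene (VIT_209s0002g05980), of a type that inactivates brassinosteroids. It had 7.0, 13.9 and 17 FPKM in NAA100 libraries, against 1.43, 4.99 and 1.45 FPKM in Control libraries. Its log2 fold change was 1.97 ± 0.33 SE (limma adjusted p = 5.65e-05). Also higher was a BRU1-like gene (VIT_210s0003g02480, log2 fold change 1.66), which is in the XTH list too. That call was lost without Control library 3 (1.497). Cytochrome P450 90B1 (VIT_204s0023g01630), a brassinosteroid synthesis enzyme, was higher as well. It had 44, 49.4 and 62.5 FPKM in NAA100 libraries, against 15.5, 40.7 and 18.8 FPKM in Control libraries. Its log2 fold change was 1.13 ± 0.31 SE (limma adjusted p = 0.00674). Its call was lost without NAA100 library 2 (1.16), NAA100 library 3 (0.993), Control library 1 (0.87) or Control library 3 (0.995). The brassinosteroid count was 1 without Control library 3. Cytochrome P450 90A1 (VIT_213s0067g00660), a brassinosteroid synthesis enzyme that the list did not hold and that was chosen after its values were seen, fell by 1.92 on the log2 scale. The named brassinosteroid synthesis enzymes thus moved in both directions. Jasmonate synthesis and JAZ genes counted 1 higher and 0 lower of 31.

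Sugar and acid genes gave 1 to 3 calls a list, beside 2.25% higher and 1.54% lower over all genes tested. Of 36 sugar transporters tested, 1 was lower (VIT_218s0122g00850, chr18:612611-619184), a hexose transporter-like gene, with 126, 118 and 95.3 FPKM in NAA100 libraries, against 335, 220.2 and 287 FPKM in Control libraries (log2 fold change −1.30 ± 0.17 SE, limma adjusted p = 1.69e-06). Sucrose metabolism counted 2 higher and 1 lower of 21, with 11 at an adjusted p of 0.05 or less (30.2% over all genes), and malate metabolism and transport 0 higher and 1 lower of 27, a tonoplast dicarboxylate transporter-like gene (VIT_200s0187g00130, log2 fold change −1.15) lost without NAA100 library 3 (−1.10), Control library 1 (−0.92) or Control library 3 (−1.11). Core histones counted 1 higher and 0 lower of 34, near the shares over all genes. In all, 41 of the 50 lists held a called gene. The other 9 were the TIR1/AFB receptors, auxin synthesis, ethylene receptors and signalling, proanthocyanidin synthesis, stilbene synthases, terpene synthases, cyclins, MADS-box factors and bHLH factors. In those 9 lists limma called none of 137 genes, while 45 had an unadjusted p under 0.05, a smaller share than the 40.4% of all genes. The stilbene synthases, grape defence enzymes that make resveratrol, had none under 0.05 among 32 tested. These 32 genes are among the 137 and lower their share. All 39 listed summed to 12.9 to 16.2 FPKM in NAA100 libraries and 11.2 to 28.3 FPKM in Control libraries. They thus lay near the floor, where a difference could hardly show. The proanthocyanidin and terpene synthase lists had only 2 tested genes each.

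A list of seed genes was included to show other tissue in the extract, and a list of skin genes to show a part of the pericarp itself. The seed list held storage and oil-body genes and also late embryogenesis abundant genes. Of its 35 genes, 4 were at 0 FPKM in all 6 libraries, 29 were tested, and 0 were higher and 3 lower (median log2 fold change 0.00). Their summed level was 737, 669 and 765 FPKM in NAA100 libraries and 525, 621 and 630 FPKM in Control libraries, so that the groups did not overlap. The P24 oleosin (VIT_214s0066g00700), an oil-body protein, had 4.16, 3.39 and 1.17 FPKM in NAA100 libraries, against 32, 21.7 and 30.04 FPKM in Control libraries (log2 fold change −2.96 ± 0.50 SE, limma adjusted p = 5.49e-05). The embryonic protein DC-8-like gene VIT_208s0007g04240 (log2 fold change −2.82) was lost without any 1 of the 6 libraries (−2.63 to −2.95). The late embryogenesis abundant protein D-29 gene VIT_205s0020g00840 (−1.53) was lost without any but Control library 2 (−1.35 to −1.60). By description, neither is a storage or oil-body protein. The count of lower genes in this list was thus 2 without Control library 2 and 1 without any other library. Of 122 cuticle and wax genes of the skin, 62 were tested, and 4 were higher and 3 lower (median log2 fold change 0.03). Their summed level was 797, 802 and 1041 FPKM in NAA100 libraries and 801, 864 and 820 FPKM in Control libraries. The part of seed or skin content in the differences above was not tested.

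**Figure D5:**
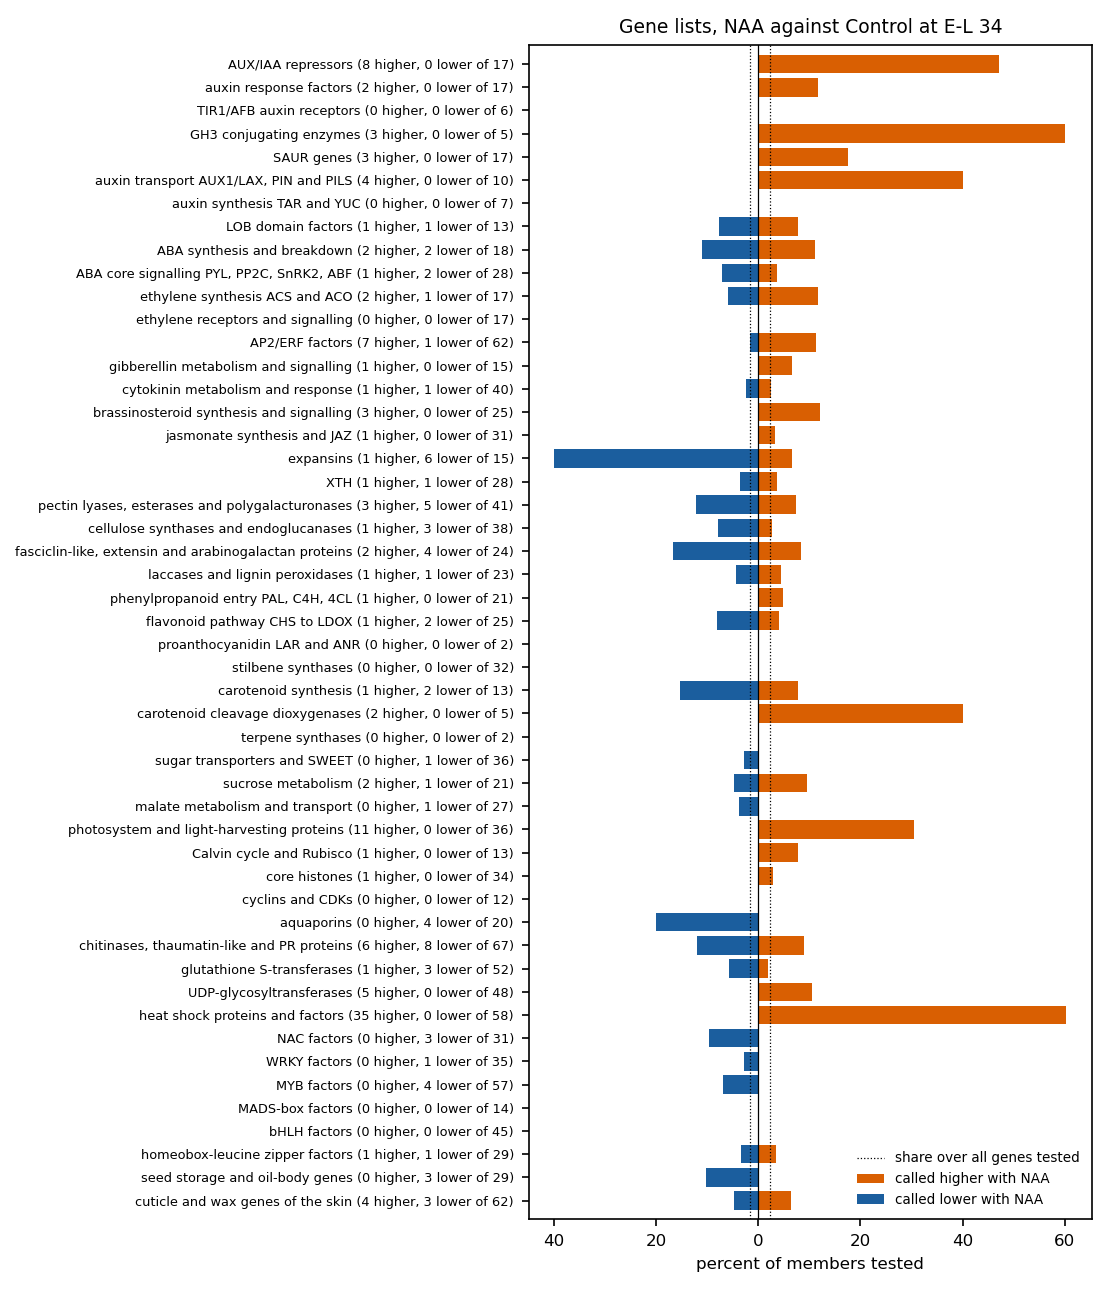
Percent of the tested members of each of the 50 gene lists called higher (orange, to the right) or lower (blue, to the left) with NAA100 against Control at E-L 34, with the counts beside each list name. The dotted lines mark the shares over all genes tested, 2.25% higher and 1.54% lower, and heat shock genes (35 of 58), GH3 genes (3 of 5) and AUX/IAA genes (8 of 17) reach the highest shares on the right, expansins (6 of 15) on the left.

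The response at E-L 34 was compared with those at the later stages, which came from other libraries of both treatments. NAA100 against Control called 225 genes higher and 205 lower at E-L 35 and 1592 genes higher at E-L 36, where 10.8% of genes were lower. At E-L 38 it called 70 genes higher and 532 lower. Of the 396 genes higher at E-L 34, 87 were also higher at E-L 35, which is 22% of the 396 and 38.7% of the E-L 35 list. At E-L 36, 35 of them were higher (8.84% and 2.20%) and 90 were lower. Of the 271 lower genes, 60 were also lower at E-L 35 (22.1% and 29.3%) and 97 at E-L 36 (35.8% and 5.09%), while 33 were higher at E-L 36. Across the 17598 genes the log2 fold changes at E-L 34 had a Pearson correlation of 0.40 with those at E-L 35, 0.02 with E-L 36 and 0.05 with E-L 38, as a description over genes that are not independent. The test of the difference between stages called 437 genes from E-L 34 to the next stage (1.29% higher and 1.19% lower), 3931 between E-L 34 and E-L 36 (13.6% and 8.75%), and 1224 between E-L 34 and E-L 38 (5.23% and 1.72%).

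Single genes differed in how long they stayed changed. The CCD4 gene VIT_202s0087g00910 had log2 fold changes of 3.59, 3.06, 4.29 and 0.25 over E-L 34, 35, 36 and 38. CYP78A5 (VIT_217s0000g05110) had 3.39, 1.81, 1.23 and 0.40. The AUX/IAA gene VIT_207s0141g00270 had 2.27, 3.08, 1.12 and 0.12, and GH3.1 (VIT_207s0129g00660) had 3.40, 3.16, −0.71 and −0.16. VVTL1 (VIT_202s0025g04330) had −6.47, −2.27, −0.08 and 1.44, and chalcone synthase 2 (VIT_205s0136g00260) had −4.25, −2.61, −0.40 and 0.53. Protein P21 (VIT_202s0025g04300) had nearly equal values at the first pair of stages, −3.65 and −3.56, and then 0.27 and 0.01. Expansin-B2 (VIT_215s0021g02700) had −3.20, −0.60, 1.66 and 0.72, so that its sign turned at E-L 36.

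The E-L 34 genes were also set against the course of the control berry, from Control libraries of E-L 38 and E-L 35. These do not enter the E-L 34 log2 fold changes, but they share the fit and its variance, so the calls are not independent. Between those stages 1667 genes were higher at E-L 38 (9.47% of genes tested) and 2537 lower (14.4%). Of the 1667, 53 were higher (3.18%) and 20 lower (1.20%) with NAA100 at E-L 34. Of the 2537, 89 were higher (3.51%) and 140 lower (5.52%). Of the 13394 genes that changed in neither direction, 254 were higher (1.90%) and 111 lower (0.829%). Genes that the Control berry lowered after E-L 35 thus held more of the NAA100 falls by number than genes it raised, and the median log2 fold changes were 0.09 for the 2537, 0.07 for the 1667 and 0.07 for the others.

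ABA1000 berries at E-L 34 were compared with the same Control libraries, so the values of both treatments are given side by side only. ABA1000 against Control called 0.136% of genes higher and 0.551% lower. The median log2 fold change of the AUX/IAA list was 1.10 with NAA100 and −0.38 with ABA1000, that of the heat shock list 1.51 and −0.10, that of the photosystem list 0.50 and −0.08, and that of the expansins −0.69 and 0.14. GH3.1 (VIT_207s0129g00660) had 3.40 with NAA100 and −2.42 with ABA1000, and ARF4 (VIT_206s0004g03130) 1.58 and −1.24. VVTL1 (VIT_202s0025g04330) had −6.47 and 1.55, chalcone synthase 2 (VIT_205s0136g00260) −4.25 and 1.85, leucoanthocyanidin dioxygenase (VIT_202s0025g04720) −2.10 and 1.36, and VvMYBA2 (VIT_202s0033g00390) −3.13 and 1.27. Pectate lyase 5 (VIT_217s0000g09810) had −4.26 and −0.57, and expansin-B2 (VIT_215s0021g02700) −3.20 and −0.98, both below 0 with either hormone. Of these single genes, only ARF4 was called with ABA1000 (limma adjusted p = 0.00459). Expansin-B2 fell short of the fold for a call (limma adjusted p = 0.00929). The others had limma adjusted p-values between 0.0185 and 0.354 with ABA1000.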

How the data were processed

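Whole-pericarp RNA of deseeded berries was sequenced in 36 libraries, 3 for each of 12 groups. The authors mapped paired-end reads with TopHat to the CRIBI grape genome (the submitters' processing notes name Bowtie), and the deposited table holds FPKM for 25280 genes, which the study's methods call RPKM. The build behind the printed coordinates is not given in the sources used here. Read counts were not used here, so absolute depth is unknown and no counting interval is given. Relative depth was read from the steps between values under 0.15 FPKM. Replicates are plots of the same vineyard.

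Values were taken as log2(FPKM + 1), and 17598 genes with at least 1 FPKM in at least 3 libraries were fitted over all 36 libraries with limma 3.58.1 in R 4.3.3 (trended variance, 24 residual degrees of freedom). Adjusted p-values are Benjamini-Hochberg values over all genes tested, and calls used the study's own thresholds (adjusted p, 0.01; size of the log2 fold change, 1). Differences between stages were interaction contrasts of the same fit. The fit was tested on simulated data with known changes. Tables and figures were made with Python 3.11.15, pandas 2.3.3, numpy 2.4.6 and matplotlib 3.10.9.

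The comparison and the 50 gene lists, matched by the table's annotations, were chosen with earlier results of these data known. Genes named were the 10 largest rises and 10 largest falls among calls whose groups do not overlap and whose higher group averages 10 FPKM or more, up to 3 calls in each direction per list where that average reaches 5 FPKM, and members of the receptor and synthesis lists. Others are marked as chosen after their values were seen. Alternatives were another pseudocount, other filters, 3 other scalings, the 6 libraries alone, a replicate block, and leaving out each library. Some called genes are not reported here.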

Additional observations from a re-analysis of the deposited data

Results flagged for a closer look

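The effect of NAA100 differed between stages by the interaction test of limma for 437 genes between E-L 34 and E-L 35, for 3931 genes between E-L 34 and E-L 36, and for 1224 genes between E-L 34 and E-L 38. Among the 20 genes with the largest rises and falls at E-L 34, 7 were themselves called in the opposite direction at E-L 36, with the difference called too. Others had a value of opposite sign at E-L 36 that was not called. Of the 7 that were called, 6 were heat shock genes that were higher at E-L 34 and had a log2 fold change below −1 at E-L 36. The 17.3 kDa class II gene VIT_204s0008g01570 had −2.26 at E-L 36, against 3.89 at E-L 34. HSP83 (VIT_202s0025g00280) had −1.46, against 3.85. The 18.2 kDa class I genes had −3.34 (VIT_213s0019g02840), −1.54 (VIT_213s0019g02770) and −4.59 (VIT_213s0019g02780) at E-L 36, all above 3 at E-L 34. The chloroplast small heat shock protein VIT_201s0010g02290 had −1.15, against 3.21. The reverse held for the 21 kDa protein VIT_200s0323g00070, with 2.97 at E-L 36 and −4.09 at E-L 34.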

How the results depend on the processing

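Depth limits the low genes, since absolute depth is unknown and members under 1 FPKM in most libraries were not tested. Against 396 genes called higher and 271 lower, 233 were higher among the 10990 genes averaging 5 FPKM or more over the 6 libraries, and 246 when the 6 libraries were fitted alone, which leaves fewer samples for the spread. Fits that left out 1 library called 317 to 560 genes higher and 217 to 294 lower, the highest of both without Control library 2. Under the other scalings, 50.4% to 66.1% of calls were higher, against 59.4%. With a pseudocount of 0.1, the genes raised in Control after E-L 35 counted 110 higher and 45 lower (53 and 20), and those lowered after E-L 35 counted 165 higher (89), and the cause was not tested. Of the 100 named genes that the rule took and that were called, 30 lost their call with the 6 libraries alone, 10 with the pseudocount, 9 when scaled by median of ratios, 5 after quantile normalization and 3 to 22 without 1 library. No direction reversed under any of these settings. With the 6 libraries alone, 4 AUX/IAA, 25 heat shock and 0 SAUR genes were higher, against 8, 35 and 3.

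The plots were laid out as randomized blocks, but no source used here ties the column numbers to the blocks, so the numbers were not taken as pairs and the effect of the field blocks was not tested. Same-numbered NAA100 and Control libraries had correlations of −0.01, −0.21 and −0.24 between their deviations from the group means. With the replicate number as a block in limma, fitted on the 6 libraries alone, 0 genes were called higher and 0 lower. In that fit 5470 genes had an unadjusted p under 0.05, and the lowest adjusted p was 0.0185. Without the block, the same 6 libraries called 246 higher and 211 lower. The block fit left far fewer residual degrees of freedom than the 24 of the main fit, and the part of this in the lost calls was not tested.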

Other observations

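Several genes outside the 50 lists, all chosen after their values were seen, showed large differences at E-L 34. Galactinol synthase 1 (VIT_207s0005g01970), which starts the synthesis of raffinose sugars, had 44.2, 53 and 78.5 FPKM in NAA100 libraries, against 3.69, 11.4 and 3.71 FPKM in Control libraries (log2 fold change 3.16 ± 0.40 SE, limma adjusted p = 1.29e-06). Its neighbour galactinol synthase 2 (VIT_207s0005g01980) had 14.1, 22.8 and 18.6 FPKM in NAA100 libraries, against 2.76, 7.12 and 2.02 FPKM in Control libraries (log2 fold change 2.08 ± 0.31 SE, limma adjusted p = 1.26e-05). Another gene of the family, on chromosome 14 (VIT_214s0060g00790), had 7.21, 8.16 and 5.71 FPKM in NAA100 libraries, against 54.4, 39.4 and 47.6 FPKM in Control libraries (log2 fold change −2.58 ± 0.36 SE, limma adjusted p = 3.83e-06), in the other direction. The family thus had members on both sides, with no overlap between the groups in any of the 3 genes. The vacuolar auxin transporter gene WAT1 (VIT_218s0001g13360), known from Arabidopsis, had 35.1, 29.8 and 46 FPKM in NAA100 libraries, against 4.83, 9.81 and 4.16 FPKM in Control libraries (log2 fold change 2.44 ± 0.32 SE, limma adjusted p = 2.12e-06). A WAT1-related gene on chromosome 8 (VIT_208s0040g00800) had 143, 162 and 195 FPKM in NAA100 libraries, against 27.3, 57.4 and 25.1 FPKM in Control libraries (log2 fold change 2.24 ± 0.45 SE, limma adjusted p = 0.000406).

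Single genes, 1 each of starch and trehalose metabolism and of the clock, were lower. A gene for ADP-glucose pyrophosphorylase (VIT_218s0001g12840), which makes the precursor of starch, had 2.0, 2.29 and 1.62 FPKM in NAA100 libraries, against 18.6, 8.86 and 13.1 FPKM in Control libraries (log2 fold change −2.24 ± 0.23 SE, limma adjusted p = 5.05e-08). A trehalose-phosphate phosphatase (VIT_218s0001g05300) had 1.95, 2.05 and 1.29 FPKM in NAA100 libraries, against 18.6, 13.4 and 12.7 FPKM in Control libraries (log2 fold change −2.52 ± 0.31 SE, limma adjusted p = 8.35e-07). REVEILLE 1 (VIT_204s0079g00410), a MYB-related factor linked to the clock in Arabidopsis, had 11.1, 7.13 and 6.85 FPKM in NAA100 libraries, against 31.9, 31.7 and 42.6 FPKM in Control libraries (log2 fold change −1.97 ± 0.24 SE, limma adjusted p = 6.68e-07). The groups did not overlap in any of these genes. The kinase CIPK16 (VIT_210s0003g01410), which acts with calcium sensors, was barely detected in NAA100 berries, with 0.0437, 0.0813 and 0.0408 FPKM in NAA100 libraries, against 15.8, 7.55 and 10.003 FPKM in Control libraries (log2 fold change −3.46 ± 0.41 SE, limma adjusted p = 3.82e-07). A chloroplast membrane protease-like gene, EGY3 (VIT_203s0088g00320), was higher, with 12.7, 13.7 and 13.9 FPKM in NAA100 libraries, against 2.11, 2.84 and 2.45 FPKM in Control libraries (log2 fold change 2.06 ± 0.14 SE, limma adjusted p = 5.42e-11).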
